A study of Mus musculus with 60 samples.

Results

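Heparan sulfate is a long sugar chain carried by proteoglycans, and 10 mouse genes whose enzymes lengthen the chain and begin its modification were followed across 8 tissues. They were chosen by name: every probe set whose RefSeq identifier belonged to Ext1, Ext2, Extl1, Extl2, Extl3, Ndst1, Ndst2, Ndst3, Ndst4 or Glce was taken. All 10 were found among the 909 genes that could be named on the array, an Affymetrix design devoted to glycan biology, each with 1 probe set. That of Extl3 is marked as sharing probes with other transcripts.

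Expression had been measured in total RNA on 60 arrays from 18 mice. St6galnac2 knockouts (KO) and wild types (WT) of that line gave thyroid, lymph node, brain and intestine. Double knockouts of B4galnt1 and B4galnt2 (DKO) and wild types of that line gave thymus, testes, mammary gland and kidney. Wild-type mice labelled C57 gave brain and small intestine only. The sample labels name the small intestine for the C57 mice and only the intestine for the St6galnac2 line, for which the series' design text names the small intestine. The labels call all mice healthy and give no age, and no strain background for the 2 lines, and how the alleles were made is not given in the sources used here. They give a sex for both lines and none for the C57 mice. Because the 2 lines shared no tissue, a difference between a tissue of one line and a tissue of the other cannot be told apart from a difference between the lines.

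The EXT1 and EXT2 proteins form the complex that builds the chain by adding glucuronic acid and N-acetylglucosamine in alternation. EXTL3 adds the first N-acetylglucosamine to the linkage sugars, EXTL2 can add one to a phosphorylated linkage region, and EXTL1 is a related glycosyltransferase. The NDST enzymes remove acetyl groups and put sulfate in their place, which sets where GLCE can turn glucuronic acid into iduronic acid and where later O-sulfation falls.

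Values are log2 units, so a difference of 1 is a doubling, and levels of different genes were not compared because each probe set has its own response. Each mouse counted once per tissue. A tissue was called higher or lower than the mean of the other 7 at a Benjamini-Hochberg adjusted p under 0.05 in limma together with a log2 difference of at least 1, and errors beside differences are standard errors. These p-values measure the spread between mice. In bulk tissue, fewer cells of a type and less RNA per cell cannot be told apart.

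Before the comparisons, each array was set against its labelled tissue over genes other than the 10. On 56 arrays the labelled tissue was the best match, with a median correlation of 0.941. The lowest of these, 0.513, was that of lymph node of WT 9094. The other 4 stood apart and were left out. Array 1 of WT 9099 labelled brain correlated at -0.272 with brain and 0.958 with intestine. The intestine array of the same mouse correlated at -0.27 with intestine and 0.948 with brain. The thymus arrays of WT N3740 and N3738 reached 0.043 and 0.057 with thymus. The arrays used numbered 9 each for brain and kidney, 7 each for mammary gland and intestine, and 6 each for thyroid, lymph node, testes and thymus. Array medians lay between 5.295 and 5.76. Defining markers were high in brain (mean of 6 genes 9.54), intestine (4 genes, 10.99), kidney (4 genes, 8.44), testes (3 genes, 7.42) and lymph node (4 B cell genes, 9.36). Not every gene of a list was high or highest in its tissue. Fut9, of the brain list, was 9.40 in brain and 10.62 in kidney. Fut2, of the intestinal list, was 4.61 in intestine and 4.38 to 4.57 elsewhere. Ugt8a was 8.17 in kidney and 9.24 in brain, and Fgf9 was 5.35 in testes and 8.78 in brain. By contrast, Umod (12.3) was highest in kidney and Galntl5 (11.7) in testes. Thymus arrays went against their label, so these are called the thymus-labelled arrays. The 4 measured T cell and thymus markers Ccl25, Ccr9, Il7r and Ccr4 averaged 3.82 there (range 3.64 to 3.97). They averaged 5.73 in lymph node and 5.90 in intestine. Of them only Ccl25 was not lower than in lymph node (4.59 against 4.24), and it was 11.4 in intestine. The 5 connective tissue genes averaged 9.79 on the thymus-labelled arrays, 9.45 in mammary gland and 9.21 in thyroid. No follicle marker of thyroid was measured, and Chga, of hormone-storing endocrine cells, ran from 5.77 to 13.1 on the thyroid arrays. For mammary gland only Angptl4 was measured, and Prol1, of salivary and lacrimal glands, ran from 2.52 to 12.5 there. Prol1 also ran from 2.41 to 11.1 in lymph node and from 2.55 to 6.95 in thyroid. B3gnt6, of the same gland list, ran from 3.92 to 9.43 in lymph node. The targeted genes did not separate the genotypes. St6galnac2 in brain, for instance, was 5.49 to 5.71 in KO and 5.67 to 5.71 in WT, and knockout and wild-type arrays overlapped in every tissue except for B4galnt1 in thymus, where 5 DKO arrays at 4.73 to 5.23 faced 1 WT array at 5.45. Whether those probes lie in the deleted parts is not given in the sources used here.

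Promoter sequences of 2 members are shown because Ndst3 and Extl2 were the members most raised in brain and the starts shown differ in composition. They run from 250 bases before to 50 bases after each annotated start, from RefSeq on GRCm38.p6, written 5′ to 3′ on the gene's strand. Capitals mark a GC box, the letters GGGCGG on either strand. The windows do not sit at like places in the 2 genes. Both Ndst3 windows lie inside the gene, which runs on the minus strand from 123691174 to 123526166. The first Extl2 window spans the gene start at 116007449, and the second lies inside the gene.

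Ndst3 start 1, chr3:123619401-123619700, minus strand: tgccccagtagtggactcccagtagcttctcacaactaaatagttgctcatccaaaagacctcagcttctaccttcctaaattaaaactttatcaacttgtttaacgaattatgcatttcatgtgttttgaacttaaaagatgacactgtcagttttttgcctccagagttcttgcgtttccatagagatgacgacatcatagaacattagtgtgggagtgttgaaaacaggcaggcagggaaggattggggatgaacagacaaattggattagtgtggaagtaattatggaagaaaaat
Ndst3 start 2, chr3:123672428-123672727, minus strand: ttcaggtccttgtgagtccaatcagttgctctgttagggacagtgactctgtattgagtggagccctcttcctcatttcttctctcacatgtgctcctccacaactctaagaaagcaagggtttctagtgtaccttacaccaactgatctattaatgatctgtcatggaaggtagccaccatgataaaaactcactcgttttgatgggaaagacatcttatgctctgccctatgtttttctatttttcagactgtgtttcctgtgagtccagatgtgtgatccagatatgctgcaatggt
Extl2 start 1, chr3:116007199-116007498, plus strand: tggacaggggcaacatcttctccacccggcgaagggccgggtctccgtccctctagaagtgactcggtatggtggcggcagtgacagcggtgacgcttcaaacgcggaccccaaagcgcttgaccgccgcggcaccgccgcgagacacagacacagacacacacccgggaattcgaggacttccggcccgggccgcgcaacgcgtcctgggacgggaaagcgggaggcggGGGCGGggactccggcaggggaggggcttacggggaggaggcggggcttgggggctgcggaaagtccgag
Extl2 start 2, chr3:116008047-116008346, plus strand: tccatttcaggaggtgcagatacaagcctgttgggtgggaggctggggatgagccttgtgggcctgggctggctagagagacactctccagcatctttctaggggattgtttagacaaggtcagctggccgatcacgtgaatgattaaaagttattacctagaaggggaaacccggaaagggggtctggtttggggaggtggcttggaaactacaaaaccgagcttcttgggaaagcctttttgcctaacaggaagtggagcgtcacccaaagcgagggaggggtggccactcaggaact

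Both Ndst3 windows were poor in G and C (39.0% and 43.0%) and held 3 and 1 CpG dinucleotides, against medians of 52.7% and 7 over 32851 annotated mouse promoters of the same length. The upstream Extl2 window held 34 CpG at 69.3% G and C, at least as many CpG as 93.0% of all promoters. The downstream one held 6 at 53.3%. One GC box lay in the upstream Extl2 window, and none lay in the other 3 windows shown. That motif occurs in 35.7% of all promoters. The motif CCAAT, searched on both strands like the others, occurs in 37.4% and was found 2 times in the first Ndst3 window and 1 time in the second. The TATA motif TATAAA, present in 13.6% of promoters, was in none of the 4. Neither was the cyclic AMP response element TGACGTCA, present in 1.8%. No window shown held more than 1 kind of motif, so none overlapped. Among the other members with an entry, the window of Glce held 30 CpG and 3 GC boxes, that of Ndst2 20 and 3, that of Ext2 18 and 0, and that of Extl1 9 and 0. These matches describe letters only.

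All 10 genes differed among tissues by limma's moderated F test, as did 99.2% of the 963 named probe sets, so this by itself sets them apart from nothing. Over 80 pairs of member and tissue, 6 were called higher and 5 lower, and over all probe sets 10.8% of such pairs were called higher and 9.84% lower. The members' shares were not above that background. Brain held 4 of the higher calls and testes 3 of the lower ones, beside 17.0% and 20.1% of all probe sets, while mammary gland, thyroid and the thymus-labelled arrays held none. The tissue levels spanned from 0.611 for Ext2 to 4.19 for Ndst4, against a median span of 1.89 over all probe sets.

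**Figure D1:**
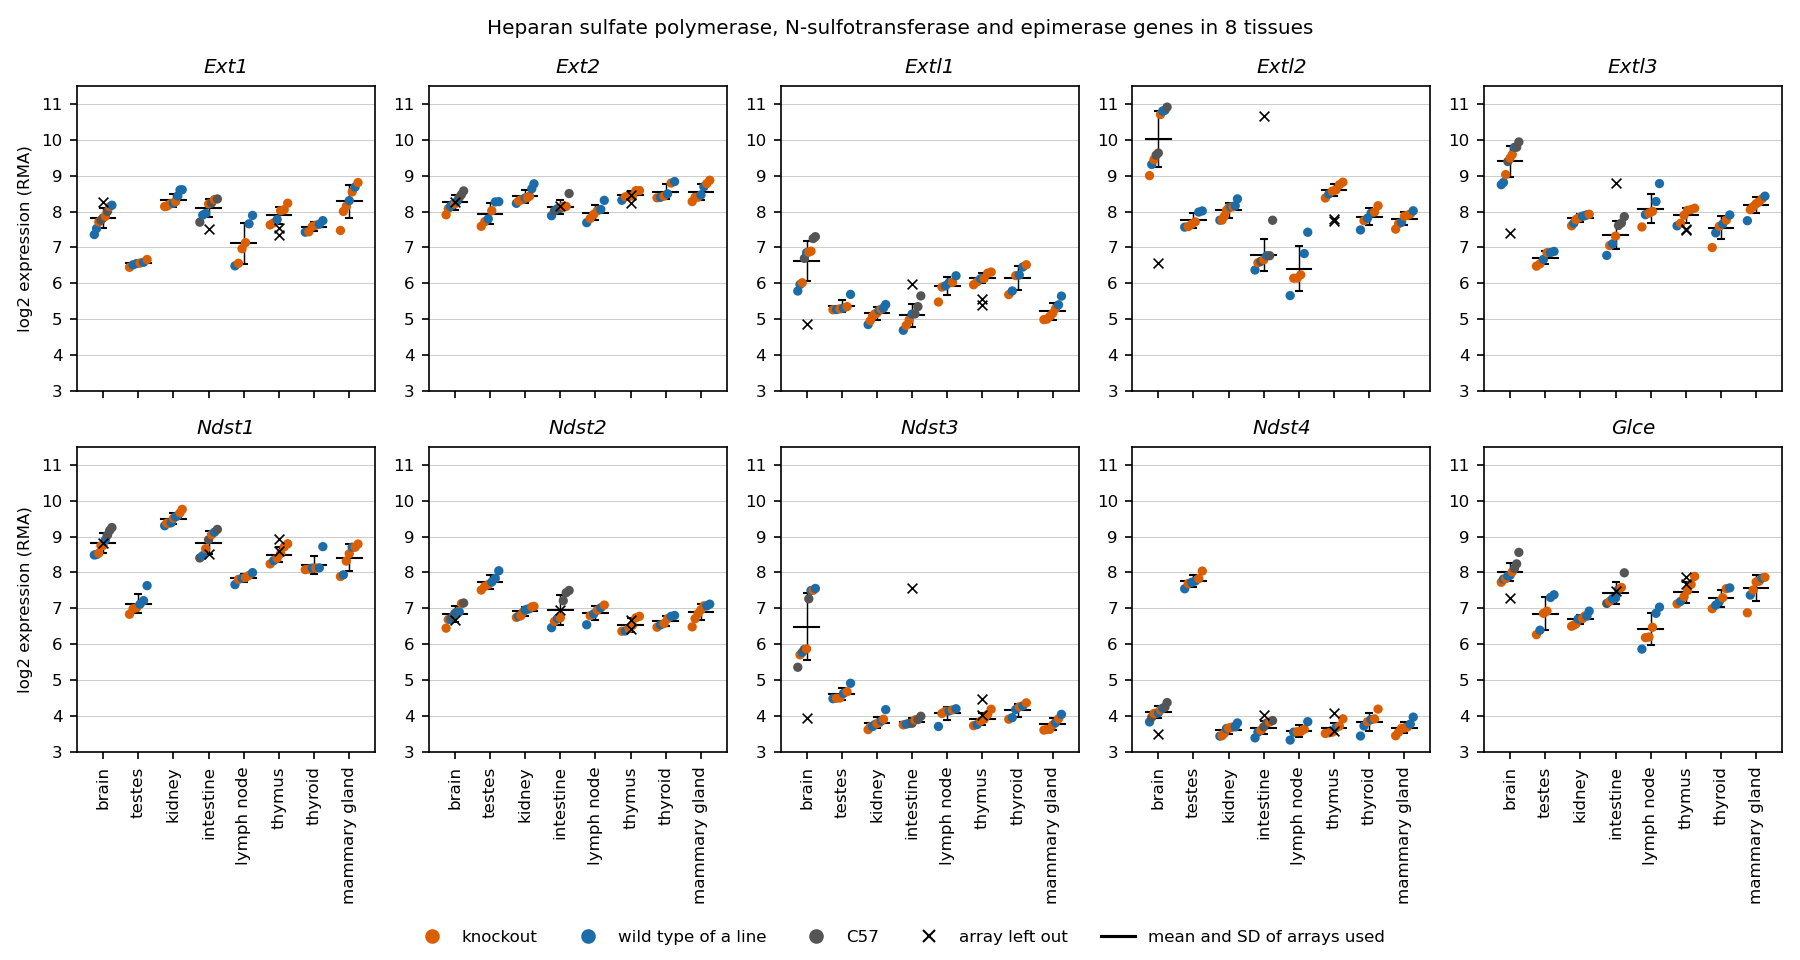
Log2 expression (vertical axes) of each of the 10 genes on every array, by tissue (horizontal axes), with knockout, line wild-type and C57 mice in separate colours, crosses for the 4 arrays left out, and bars for the mean and SD of the arrays used. Ndst4 in testes and Ndst3 and Extl2 in brain lie wholly above all other tissues on the arrays used (the crosses excepted), whereas Ext2 stays within about the same band throughout.

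Among the polymerase genes, Ext1 was low in testes, at 6.45, 6.56 and 6.66 (lowest, median and highest of 6 arrays). In kidney, where its mean was highest, it was 8.14, 8.23 and 8.61 on 9 arrays. The 2 tissues did not overlap. Testes differed from the mean of the others by -1.32 ± 0.13 (adjusted p = 6.16e-13, limma), and from the other 3 tissues of its line by -1.61. Kidney at +0.70 and mammary gland at +0.66 were above the others with adjusted p of 2.24e-07 and 1.04e-05 but short of a doubling. Going down the order of levels from kidney through mammary gland, intestine, thymus and brain to thyroid, neighbours did not differ beyond their spread (adjusted p from 0.167 to 0.869). Thyroid exceeded lymph node by 0.46 (p adjusted 0.0239) and lymph node exceeded testes by 0.56 (0.00412).

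Ext2, the partner of Ext1 in the complex, varied least among the 10. Its tissue means lay between 7.95 in testes and 8.56 in thyroid and mammary gland, and in testes its arrays were at 7.59, 7.91 and 8.28. Of the 28 pairs of tissues 16 differed at an adjusted p under 0.05, none by 1 or more. Over all probe sets 59.8% of such pairs passed. No neighbours in its order differed (adjusted p from 0.134 to 0.999). The difference between testes and the others, -0.39 ± 0.09, was smaller than that of Ext1.

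Extl2 was the gene with the widest range among the 3 EXT-like members. On the 9 brain arrays it was 9.001, 9.632 and 10.911, and on the other 47 arrays it was 5.66 to 8.82. Brain therefore lay above every other array, as it did for 7.89% of probe sets. The difference from the other 7 tissues was 2.42 ± 0.15 (adjusted p = 3.25e-20, limma), and 3.07 within the line. The SD of Extl2 over the brain arrays was 0.77, against a residual SD of 0.43 in the pooled fit. The error and p-value thus understate the spread in brain. Calls higher in brain covered 17.0% of all probe sets, and 4 of the 10 members: Ndst3, Extl2, Extl3 and Extl1. None was among the 14.6% called lower there. The median difference of the members in brain was 0.69, against -0.16 over all probe sets, and after a further quantile normalization it was 0.43 with 3 members called.

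At the other end, lymph node arrays read 5.66, 6.19 and 7.42 for Extl2, and intestine arrays 6.37, 6.66 and 7.76. The difference from the other tissues was -1.72 ± 0.18 in lymph node (adjusted p = 9.29e-12) and -1.28 ± 0.17 in intestine (3.98e-09), both by limma. No other member was called lower in those tissues, where 8.83% and 10.7% of probe sets were called so. No member was among the 11.3% and 13.8% called higher. Intestine and lymph node did not differ from each other (0.38, adjusted p = 0.158). With all 60 arrays the intestine difference was -0.73 and not called, as the array of WT 9099 read 10.7. In lymph node the highest value, 7.42, belonged to WT 9094, whose B cell markers averaged 7.39 against 9.51 to 9.99 on the other arrays and whose connective tissue genes averaged 8.56 against 6.99 to 7.72. The part of that difference in makeup was not tested. Below brain, Extl2 stood at 8.60 on the thymus-labelled arrays, above kidney at 8.03 (difference 0.57, adjusted p = 0.0293). Kidney, thyroid, mammary gland and testes formed a run of neighbours without a difference (adjusted p from 0.505 to 0.867).

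Extl3, the initiating enzyme, was also raised in brain and was low in testes. Brain arrays were at 8.75, 9.49 and 9.94 and testes arrays at 6.48, 6.76 and 6.89. Brain exceeded the others by 1.75 ± 0.11 (adjusted p = 3.28e-20) and testes differed by -1.32 ± 0.13 (7.78e-13), both by limma. The SD of Extl3 was 0.44 in brain, against a residual SD of 0.309, so the brain error understates the spread. One array of another tissue, lymph node of WT 9094 at 8.78, reached the brain range. Between these ends the order ran from mammary gland (8.17) through lymph node, thymus-labelled, kidney and thyroid to intestine (7.34), with no difference between neighbours (adjusted p from 0.159 to 0.75), and intestine exceeded testes by 0.63 (0.001).

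Extl1 in brain was the call nearest the threshold. Brain arrays were at 5.78, 6.85 and 7.30, and brain exceeded the others by 1.04 ± 0.12 (adjusted p = 1.06e-11, limma). The SD of Extl1 was 0.564 in brain, against a residual SD of 0.319 in the pooled fit. That error and p-value understate the spread in brain. Against the other 3 tissues of its line the difference was 0.74, in male animals alone 0.59, in wild types alone 0.97, after the further quantile normalization 0.92 and with all 60 arrays 0.99, none of them called. Without WT 9094, KO 9361, C57 M3 or C57 F1 it was 0.99, 0.99, 0.97 and 0.97, also short of 1, so 19 of 28 alternatives kept the call. Brain exceeded thyroid, the next tissue, by 0.48 (adjusted p = 0.00932). Thyroid, thymus-labelled and lymph node arrays, at 5.92 to 6.15, did not differ as neighbours, nor did testes, mammary gland, kidney and intestine at 5.11 to 5.36. Lymph node and testes, on either side of that gap, differed by 0.56 (0.00548).

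**Figure D2:**
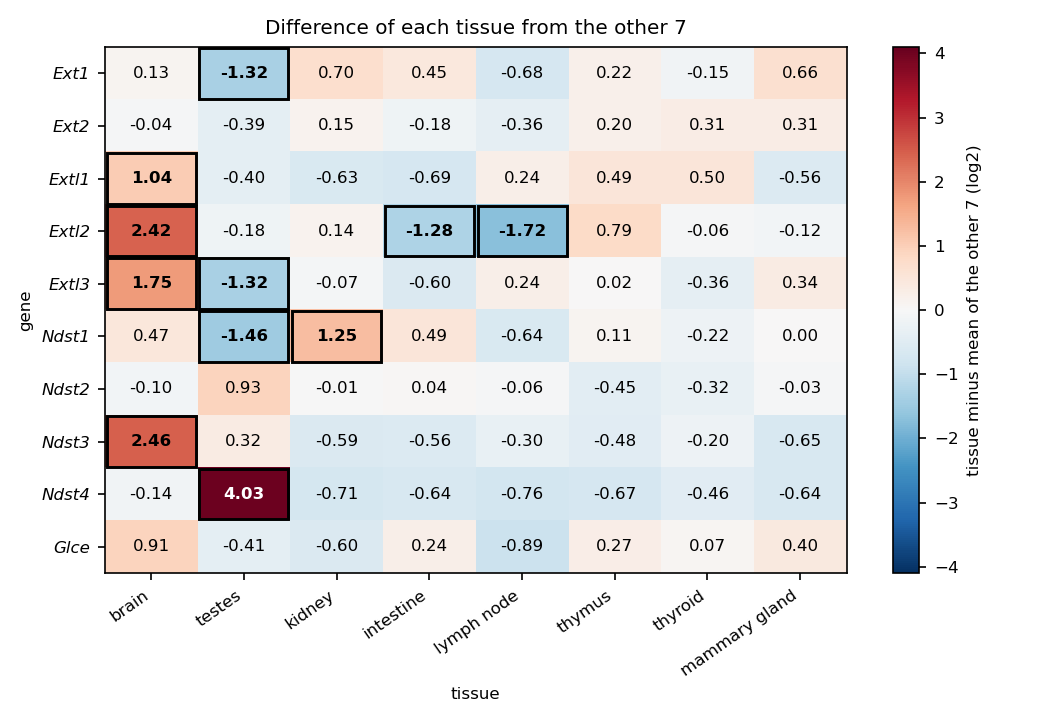
Difference in log2 units of each tissue (columns) from the mean of the other 7, for each gene (rows), with colour for its size and sign and a black frame around the 11 differences called. The framed cells are 4 in brain, 4 in testes and 1 each in kidney, intestine and lymph node.

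The N-sulfotransferase genes included 2, Ndst3 and Ndst4, that were called in a single tissue each. Ndst1, broadly expressed in mammals, read 9.30, 9.51 and 9.76 on the 9 kidney arrays, above every other array (at most 9.25). Kidney was higher than the other tissues by 1.25 ± 0.10 (adjusted p = 9.67e-17, limma), and 1.49 within the line. It was the only member among the 11.1% of probe sets called higher in kidney, and none was among the 9.03% called lower. Every array of kidney lay above all others for 3.22% of probe sets.

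In testes Ndst1 had its lowest values, 6.83, 7.07 and 7.63, all below the other 50 arrays (at least 7.66), as was the case for 4.78% of probe sets. The difference was -1.46 ± 0.11 (adjusted p = 1.39e-16, limma). Ndst1, Extl3 and Ext1 were the 3 members called lower in testes, where 20.1% of probe sets were. The median over the 10 members was -0.40 against -0.11 over all probe sets. After a further quantile normalization of the arrays that median became 0.11, and the 3 differences became -0.90 for Ndst1, -0.90 for Extl3 and -0.93 for Ext1, still lower but not called. Between kidney and testes, Ndst1 stepped down at 4 places: from kidney to intestine (0.67, adjusted p = 2.01e-05), from brain to the thymus-labelled arrays (0.32, 0.0391), from thyroid to lymph node (0.36, 0.0402) and from lymph node to testes (0.71, 4.73e-05).

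Ndst2, whose enzyme is needed for heparin in mast cells, went the other way in testes. Its 6 testes arrays were at 7.51, 7.70 and 8.05, just above the highest of the other 50 arrays, 7.498 in an intestine. Testes exceeded the others by 0.93 ± 0.10 (adjusted p = 6.89e-12, limma), short of the threshold of 1, and by 1.46 after the further quantile normalization, which was called. Every array of testes lay above the rest for 6.02% of probe sets. The other 7 tissues of Ndst2 lay between 6.53 and 6.96, and no neighbours among them differed (adjusted p from 0.152 to 0.909).

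Ndst4 was high in testes and low on all other arrays used. It read 7.54, 7.73, 7.76, 7.69, 7.83 and 8.04 in the 3 WT and 3 DKO mice, and between 3.33 and 4.37 on the other 50 arrays. Testes exceeded the other tissues by 4.03 ± 0.08 (adjusted p = 6.42e-44, limma), and by 4.12 within the line. It was the only member among the 8.41% of probe sets called higher in testes, and its F statistic of 406.7 ranked 19 of 963. Outside testes, brain at 4.11 exceeded thyroid at 3.83 by 0.28 (0.0065), and from thyroid down to lymph node at 3.58 no neighbours differed (adjusted p from 0.182 to 0.994). Of all values on the arrays 25% were under 4.21, and no detection calls came with the values, so low readings of Ndst4 and Ndst3 do not tell a low level from none.

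Ndst3 rose in brain. Its brain arrays were at 5.36, 5.87 and 7.55, all above the other 47 arrays at 3.60 to 4.91. The difference from the other tissues was 2.46 ± 0.15 (adjusted p = 1.52e-21, limma), and 2.64 within the line. The SD of Ndst3 was 0.934 in brain and at most 0.185 in any other tissue, against a residual SD of 0.409 in the pooled fit. The error and p-value thus understate the spread in brain. Testes came next at 4.48, 4.56 and 4.91, below brain by 1.87 (2.87e-11). Its lead over thyroid, at 3.91 to 4.36, was 0.46 and did not pass (0.0835). The SD was 0.166 in testes and 0.185 in thyroid, so the pooled fit overstates the spread between mice in that comparison. The remaining neighbours, down to mammary gland at 3.77, did not differ in that fit (adjusted p from 0.615 to 0.925). The pooled spread is too wide for them as well.

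Glce, the epimerase that acts after N-sulfation, had no called tissue. Brain was its highest tissue, with arrays at 7.73, 7.92 and 8.56, and lay 0.91 ± 0.11 above the others (adjusted p = 3.27e-10, limma). Lymph node was its lowest, at 5.86, 6.34 and 7.03, and differed by -0.89 (8.65e-08). Without WT 9094, whose array gave the 7.03, the lymph node difference was -1.01 and called, as it was within the line (-1.06) and with each array centred on its median (-1.004). Kidney, at 6.69, did not differ from lymph node (0.26, adjusted p = 0.174).

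Mammary gland, thyroid and the thymus-labelled arrays had no called member, where 9.66%, 6.44% and 8.62% of probe sets were called higher and 3.22%, 6.96% and 5.19% lower. The thymus-labelled arrays were nearest to a call with Extl2, at +0.79 (adjusted p = 0.000247), and thyroid with Extl1, at +0.50 (0.00152).

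The 9 brain arrays held 2 sets of values for several of these genes. Ndst3 was 7.264 on C57 F2, 7.494 on WT 9099, 7.503 on KO 9100 and 7.553 on WT 9362. On C57 M3, KO 9361, WT 9094, C57 F1 and KO 9093 it was 5.36, 5.70, 5.77, 5.85 and 5.87. No array fell between, and both sets held knockout, wild-type and C57 mice. By label, the line mice of the first set (WT 9099, KO 9100 and WT 9362) were all male. Those of the second were KO 9361, a male, and WT 9094 and KO 9093, both female. Extl2 split the same arrays, at 10.705 to 10.911 against 9.001 to 9.632. Extl1 went the other way, at 5.78 to 6.69 against 6.85 to 7.30, and so did Extl3, at 8.75 to 9.40 against 9.49 to 9.94. Ext2, Glce, Ndst1, Ndst2 and Ndst4 did not separate them, and Ext1 by array is not reported here. The sets were read from Ndst3 itself. The share of all probe sets that separate the same arrays is not given here, so the splits are a description only. Markers moved with the sets. The mean of the 6 brain markers was 9.37 to 9.79 over all 9 arrays, but Ncan, which encodes a brain proteoglycan, read 7.93 to 9.26 on the first 4 arrays and 10.2 to 10.7 on the other 5. Bcan, of a related proteoglycan, read 9.61 to 9.76 and 9.91 to 10.2, while Fut9, Ugt8a, Mag and Ptprz1 overlapped. Kit read 8.37 to 9.20 on the first 4 and 7.08 to 7.91 on the other 5. The sets were seen in the values themselves, carry no label and were given no test, and what underlies them was not tested.

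**Figure D3:**
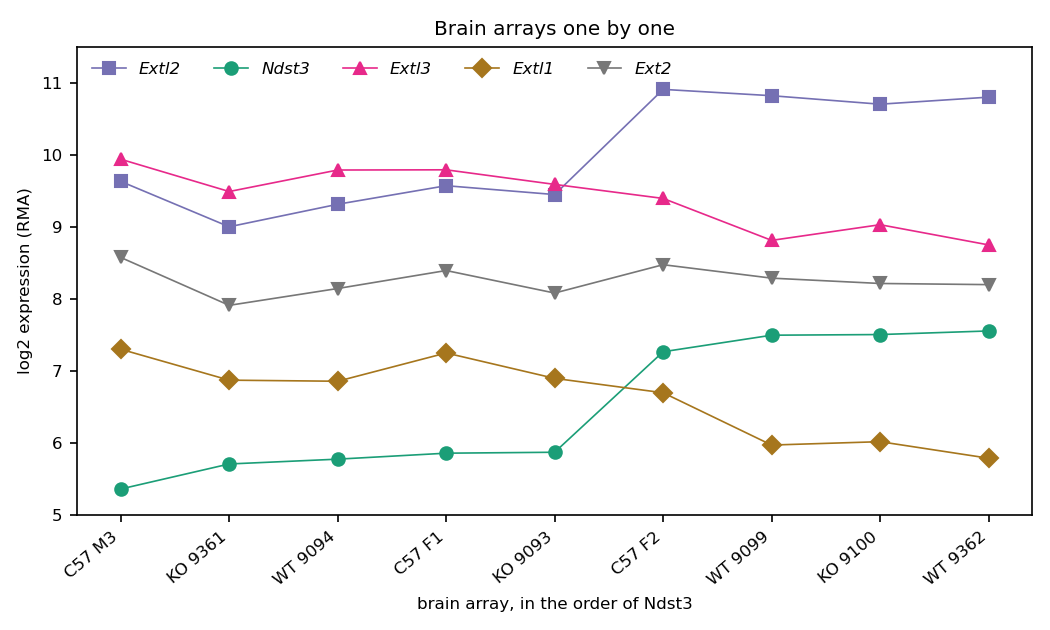
Log2 expression (vertical axis) of 5 of the genes on each of the 9 brain arrays (horizontal axis), placed in the order of Ndst3, with lines joining the values of a gene for the eye only. On the 4 arrays at the right Ndst3 is at least 7.26 and Extl2 at least 10.7, against at most 5.87 and 9.63 on the 5 at the left, and Extl1 and Extl3 are lower on the same 4 arrays.

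Across the 8 tissue means the members did not follow a single profile. Of the 45 pairs of members, 27 correlated above 0 and 18 below, with a median r of 0.23. The genes with the profiles most like each member, among 670 genes whose means spanned at least 1, are given as descriptions over 8 tissues. For Ndst4 they were Gpc2 (r = 0.995), Wnt6 (0.995) and Dll3 (0.994), and for Ndst3 Wnt7a (0.995), Mgat5b (0.993) and Hs3st2 (0.989). Gpc2 encodes a proteoglycan core protein, and Hs3st2 another heparan sulfate sulfotransferase. Extl2 was most like Cntfr (0.912) and Gaa (0.906), Extl3 most like Oga (0.946), Hp1bp3 (0.943) and Huwe1 (0.906), and Extl1 most like Rrn3 (0.861), B3galt1 (0.858) and Pkd1 (0.821). Ext1 was followed by Galnt2 (0.932), Ugdh (0.925) and Asah1 (0.914), and Ext2 by Fzd7 (0.947), Sdc2 (0.941) and Pgm1 (0.925). Ugdh makes the glucuronic acid donor, and Sdc2 is a core protein that carries heparan sulfate. Ndst1 was most like Pigq (0.942), Slc35e3 (0.915) and Agrn (0.914), Ndst2 most like Itgae (0.944), Galnt3 (0.941) and Igf2bp3 (0.93), and Glce most like Fzd2 (0.931), Bmp1 (0.859) and Angptl6 (0.848). All these correlations share the same arrays and rest on 8 tissue means. Those of Ndst4 rest mainly on testes (7.76, against at most 4.11 in another tissue). Those of Ndst3 rest mainly on brain (6.485, against at most 4.61).

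Of 29 other genes of the pathway, 25 were measured: 5 for the linkage region, 10 for O-sulfation, 4 for release and editing and 6 for precursor supply. In brain 6 were called higher and 2 lower, beside 17.0% and 14.6% of all probe sets. Hs6st2 (+3.93 ± 0.13) and Hs3st5 (+2.52 ± 0.14), both O-sulfotransferases, stood highest, and the heparanase gene Hpse lowest (-1.73 ± 0.20). In kidney 5 were higher and 4 lower (11.1% and 9.03% of all), led by Papss2, which makes the sulfate donor (+3.38 ± 0.24), and Hs6st1 (+1.94 ± 0.11), with the 6-O-endosulfatase gene Sulf1 at -2.12 ± 0.13. In intestine 3 were higher and 2 lower (13.8% and 10.7% of all), with Papss2 at +2.93, Ugdh at +2.20 and Hs6st2 at -1.83. These calls came from the same limma fit as those of the members.

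In testes none of the 25 was called higher and 6 were called lower, 4 of them among the 6 precursor supply genes. Over all probe sets 8.41% were called higher and 20.1% lower there. Ugdh, the lowest, differed from the other tissues by -2.98 ± 0.19. In lymph node, where 11.3% and 8.83% of all were called, 1 was higher (Hpse, +1.88) and 3 lower (lowest Hs6st2, -1.70). Thyroid had 3 higher (6.44% of all), with Ugp2 at +2.13 and Hs3st5 at +1.52, and the thymus-labelled arrays 1 (8.62% of all), Sulf1 at +2.82. Mammary gland had none in either direction.

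Arrays labelled as knockouts of St6galnac2, a sialyltransferase gene, or of B4galnt1 and B4galnt2, whose enzymes add N-acetylgalactosamine to glycolipids and glycoproteins, were compared with the wild type of the line within each tissue. No member passed an adjusted p under 0.05 in limma in any of the 8 comparisons, with sex as a covariate outside testes. Thyroid (42 probe sets at an unadjusted p under 0.05), lymph node (33), brain (18) and intestine (60) had 0% of probe sets called, and so had thymus (27) and mammary gland (97). In testes 0.312% were called (124 unadjusted) and in kidney 0.104% (129). In thymus 1 WT array faced 5 DKO arrays, and in intestine 2 faced 2.

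Of the members' differences, 4 had an unadjusted p under 0.05. In testes Ndst1 was 6.83, 6.99 and 7.02 in DKO and 7.12, 7.21 and 7.63 in WT. The difference was -0.37 ± 0.15 (adjusted p = 0.324, limma). In mammary gland Extl1 differed by -0.40 ± 0.12 (0.389), with 5 DKO and 2 WT arrays. In kidney Ext1 differed by -0.26 ± 0.09 (0.294) and Glce by -0.19 ± 0.06 (0.289), with 5 DKO and 4 WT mice. The testes count rested on WT N9700: without that mouse 4 members were called lower in DKO, namely Ext2 (-0.50, adjusted p = 0.0316), Extl2 (-0.35, 0.0482), Glce (-0.66, 0.0275) and Ndst1 (-0.48, 0.038). In that fit 20.0% of all probe sets were called lower, and the median was -0.30 over the members and -0.15 over all.

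The 95% confidence intervals of the members' differences were widest in brain, where that of Ndst3 spanned 1.33 on either side of -0.58, and reached at most 0.27 on either side in kidney. Changes inside those intervals were not resolved by these numbers of mice. The median over the members lay between -0.19 in testes and 0.15 in thymus, beside -0.11 and 0.04 over all probe sets there. Whether the knockout difference itself varied between tissues of a line was tested with an interaction term, and the members' adjusted p was 0.987 in the St6galnac2 line and from 0.634 to 0.941 in the B4galnt1/B4galnt2 line.

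**Figure D4:**
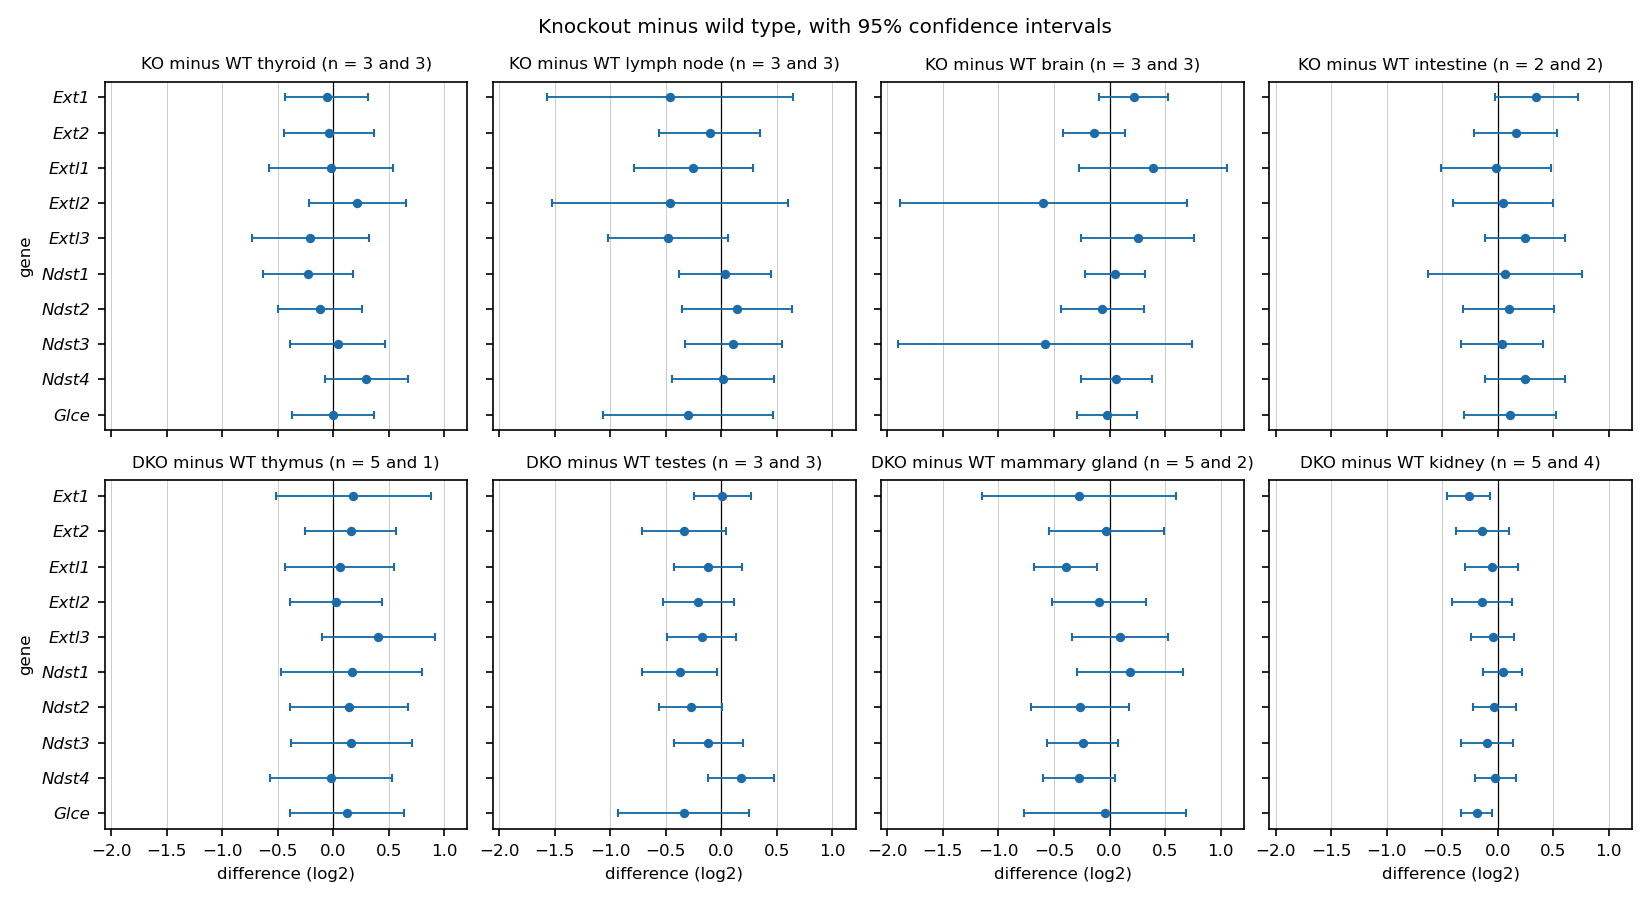
Knockout minus wild type in log2 units (horizontal axes) for each gene (vertical axes) in each of the 8 tissues, with 95% confidence intervals and the number of knockout and wild-type mice. No member was called, and the intervals are widest for Extl2 and Ndst3 in brain.

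Wild types of the St6galnac2 line were set against C57 mice in brain and intestine, and no member was called by limma. In brain 0% of probe sets were called (246 at an unadjusted p under 0.05) and in intestine 0.104% (208). In brain 4 members had an unadjusted p under 0.05: Extl1 (-0.88), Ndst1 (-0.53), Glce (-0.42) and Ext2 (-0.27), all lower in the line (adjusted p from 0.129 to 0.165). Without WT 9094, Extl1 (-1.21), Extl3 (-0.93) and Ndst1 (-0.66) were called lower at an adjusted p of 0.044, as were 6.33% of all probe sets. The 2 line brains left in that fit, WT 9362 and WT 9099, both belong to the 4 arrays low in Extl1 and Extl3, as does C57 F2 but not C57 M3 or F1. In intestine Ndst2 (-0.79) and Extl3 (-0.78) had the smallest p (adjusted 0.138), with 2 WT against 3 C57 mice.

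Females and males were compared in kidney and mammary gland. The tissues of the St6galnac2 line also held both sexes, and their sex differences are not reported here. In kidney 9.03% of probe sets differed (230 at an unadjusted p under 0.05) and no member did. Ndst1 was 9.59, 9.66 and 9.76 in the 3 females and 9.30 to 9.55 in the 6 males, a difference of 0.25 (adjusted p = 0.0909, limma). Glce differed by 0.21 (0.0826). In mammary gland Ndst1 was again higher in females, at 8.70 to 8.79 against 7.89 to 8.52, by 0.58 (0.307), where 0.312% of probe sets passed (111 at an unadjusted p under 0.05).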

How the data were processed

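Total RNA was labelled and hybridised to 60 custom Affymetrix arrays. Expression is given as deposited, in log2 units, and RMA (robust multi-array averaging) is the method that the submitters' processing notes name for it. No version is given there, and whether all arrays were normalized together is not given in the sources used here. The values, from 2.113 to 14.069, were used as deposited, and the number of arrays limits their precision. Of 1246 probe sets 963 were named through their RefSeq identifier, and all of these entered each fit and adjustment.

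Fits were made with limma 3.58.1 (R 4.3.3) on 56 arrays, 1 value per mouse and tissue: a single fit with a coefficient per tissue, and separate fits for knockout, line and sex in each tissue. The 4 arrays under a correlation of 0.3 with their labelled tissue were put back as an alternative. A call needed an adjusted p under 0.05 and, for tissues, a difference of at least 1. Alternatives were other scalings, thresholds and filters, subsets of mice, a replicate block by mouse and leaving out each mouse. The comparison within a line was added after the values were seen. The members and gene lists were chosen with earlier results of these data known. Every member was named, with the 3 genes of most similar profile (1 of them, for Extl2, is not reported here) and, per tissue, the 2 pathway genes with the largest difference upward and the lowest among those called. The fits were tested on simulated data.

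The same mice gave several tissues, which pairs the arrays. The median correlation of deviations from the group means was -0.003 between tissues of a mouse in the St6galnac2 line (-0.001 between mice), 0.057 in the B4galnt1/B4galnt2 line (-0.007) and -0.066 in C57 (0.012).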

Additional observations from a re-analysis of the deposited data

Results flagged for a closer look

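By Dixon's criterion 6 values lay far from the rest of their set, out of 120 sets of 4 to 10 arrays examined, and chance alone marks about 1 set in 20. In intestine, Ext2 was 8.502 in C57 F2 (others 7.884 to 8.144) and Extl2 was 7.757 in C57 M3 (others 6.37 to 6.769). A pair belonged to WT 9094: Ndst3 at 3.705 in lymph node (others 4.069 to 4.199) and Ndst1 at 8.719 in thyroid (others 8.077 to 8.127). In testes Extl1 was 5.69 in WT N3740 (others 5.262 to 5.349). Among WT kidneys Extl3 was 7.675 in N9686 (others 7.873 to 7.911).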

How the results depend on the processing

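The count of 6 higher and 5 lower calls over members and tissues became 11 and 21 with a threshold of 0.5, and 20 and 32 with none. The shares of all probe sets under these thresholds, and in the comparison within a line, are not given here. Such counts are therefore not read as a trait of the members. A further quantile normalization gave 3 lower calls, of which Glce in lymph node was gained and Extl2 in lymph node and intestine was in both, and the comparison within a line gave 12 lower and 5 higher. That contrast holds testes as 1 of only 3 other tissues, and Ndst4 accounts for 3 of the added lower calls (-1.41 in kidney, -1.33 in mammary gland and -1.37 on the thymus-labelled arrays). With the replicate block by mouse (correlation 0.0729 over tissues) the counts were 6 and 5, and 0 members were called in each knockout comparison, so it changed no call. Leaving out 1 mouse at a time gave 0 to 4 called members for DKO testes and 0 to 3 for the line against C57 in brain. Ndst3, Extl2 and Extl3 in brain, Ndst1 in kidney and Extl2 in lymph node stayed called under all 28 alternatives, and Ndst4 in testes under the 27 that kept its probe set (3.93 to 4.53). No result changed sign while called. Leave-one-out values in intestine came from a single fit of the line, and DKO thymus without WT N9700 could not be fitted, as no WT array was left. Each member had 1 probe set, so no other probe set could be tried. Thymus rests on 1 WT array and intestine on 2 per genotype.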
